A study of Mus musculus with 12 samples.

Results

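Liver vessels were followed through 10 endothelial marker genes in liver tumors and livers of p21+/Tert and p21+/TertCi mice. Cd34, Emcn, Plvap and Vwf were taken as markers of capillary and larger vessels, and Kdr, Lyve1, Stab2, Clec4g, Oit3 and Gpr182 as markers of liver sinusoids. These are 10 of the 24421 gene symbols counted in every library, chosen by name with an earlier result in view, the higher counts of Cd34 and Emcn in tumors than in livers. Their tumor and liver values are therefore given as a description with no test. Tests were kept for 3 comparisons that the choice did not use: between tumors with and without a Ctnnb1 mutation, between genotypes in the size of the tumor effect, and between the livers of the 2 genotypes.

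Both genotypes carry an allele in which the promoter of Cdkn1a, the gene for the cell cycle inhibitor p21, drives telomerase reverse transcriptase (Tert) in p21+/Tert mice and a catalytically inactive form (TertCi) in p21+/TertCi mice. All animals ate a standard diet and were killed when aged. Poly(A) RNA of whole tissue was sequenced from 4 p21+/Tert tumors (T-HCC662 and T-HCC663, then T-HCC941 and T-HCA992), 2 p21+/TertCi tumors (TCi-HCC981 and TCi-HCA984) and the non-tumoral liver of each of these 6 mice, 12 libraries of 14571716 to 26170661 counted reads. In these names HCC stands for hepatocellular carcinoma, HCA for adenoma and the number for the mouse, but the pathology record of the mouse with T-HCC663 gives an adenoma, so the names are not used here as diagnoses. The liver paired with T-HCC662 carries another animal number in its label and was assigned by elimination, the other 5 being named by their mouse. No liver without such an allele and no second sample of any tumor was analysed here, so the spread between samples is that between animals.

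The sinusoid is the capillary of the liver lobule. Its endothelium is perforated by open fenestrae, rests on little basement membrane and clears hyaluronan, modified proteins and immune complexes from portal blood through scavenger receptors and lectins. Capillaries elsewhere, and vessels of hepatocellular tumors, more often have a closed lining on a continuous basement membrane and carry CD34, a change known in liver pathology as capillarization. In bulk RNA, fewer cells of a type and less RNA per cell cannot be told apart.

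In mm10, Cd34 (chromosome 1, 194938819 to 194961279) and Emcn (chromosome 3, 137341067 to 137432185) are on the plus strand, and Kdr (chromosome 5, 75932827 to 75978458) and Clec4g (chromosome 8, 3707064 to 3720651) on the minus strand. Promoters are shown for the genes that mark the ends of the pattern described here: Cd34 and Emcn were higher in each tumor than in its liver, Clec4g was lower in all but 1 tumor, and Kdr passed the test between tumor classes. Each run is the 250 bases before the RefSeq start of the gene, 5′ to 3′ on the strand of the gene (GRCm38.p6; Cd34 at chr1:194938571-194938820, Emcn at chr3:137340828-137341077, Kdr at chr5:75978456-75978705 and Clec4g at chr8:3720652-3720901). Capitals mark GGAA or TTCC, the core letters bound by ETS factors, a family that endothelial genes are known to use.
Cd34: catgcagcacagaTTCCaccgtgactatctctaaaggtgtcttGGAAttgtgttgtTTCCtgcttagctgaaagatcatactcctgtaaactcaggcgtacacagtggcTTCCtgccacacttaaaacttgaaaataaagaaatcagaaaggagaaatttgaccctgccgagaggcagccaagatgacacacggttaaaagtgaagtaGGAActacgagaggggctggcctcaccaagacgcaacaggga
Emcn: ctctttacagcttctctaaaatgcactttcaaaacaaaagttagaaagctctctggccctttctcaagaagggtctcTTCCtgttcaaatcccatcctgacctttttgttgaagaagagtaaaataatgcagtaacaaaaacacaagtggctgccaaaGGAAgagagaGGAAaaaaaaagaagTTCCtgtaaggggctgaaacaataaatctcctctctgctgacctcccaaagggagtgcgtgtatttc
Kdr: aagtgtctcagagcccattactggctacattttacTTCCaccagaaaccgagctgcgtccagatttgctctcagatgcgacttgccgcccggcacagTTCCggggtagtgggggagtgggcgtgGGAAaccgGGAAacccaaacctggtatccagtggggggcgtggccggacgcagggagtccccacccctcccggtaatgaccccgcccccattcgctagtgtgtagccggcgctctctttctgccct
Clec4g: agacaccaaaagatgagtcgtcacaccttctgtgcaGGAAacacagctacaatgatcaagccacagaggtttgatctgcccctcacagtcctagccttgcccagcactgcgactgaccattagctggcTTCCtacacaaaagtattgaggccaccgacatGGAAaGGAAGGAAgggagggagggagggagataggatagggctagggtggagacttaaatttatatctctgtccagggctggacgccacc

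Read on both strands, the core letters occurred 5 times in the Cd34 window, 4 times in that of Emcn, 4 times in that of Kdr and 5 times in that of Clec4g. Of 32851 promoter windows of this length, 93.4% held at least 1 match, with a median of 3, 18.0% held 5 or more, and 33.4% held 4 or more. The GATA core letters, GATAA or TTATC, were in none of the 4 windows and in 22.6% of all of them. Sequence was at hand for 5 of the 10 genes, Stab2 being the fifth, with 6 ETS core matches and no GATA core match.

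All 10 genes passed the filter on low counts, as did 13822 genes in all. Their counts ran from 4 reads (Lyve1 in T-HCC662) to 2016 reads (Plvap in the liver paired with TCi-HCC981), so the lowest values rest on few reads. Endothelial RNA was present in every library: Pecam1, which encodes the junction protein CD31, ranged from 3.61 to 43.6 counts per 1000000 reads (CPM), and the summed level of 21 pan-endothelial genes from 222 to 565 CPM. The 6 hepatocyte genes, albumin among them, summed to 15517 to 93463 CPM. Short stretches of exon are shared with a gene on the opposite strand in Cd34 (148 bases), Stab2 (141), Clec4g (146) and Gpr182 (74), and reads there cannot be assigned if counting ignored strand, which is not given in the sources used here.

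Per length, Plvap led in both tissues and Vwf was among the lowest. In livers the median level fell in the order Plvap (19.4 CPM per kilobase of exon), Clec4g (13.1), Oit3 (4.06), Stab2 (3.33), Gpr182 (2.72), Kdr (1.88), Lyve1 (1.14), Vwf (0.281), Emcn (0.251) and Cd34 (0.208), and the ranges of all neighbours overlapped. In tumors the order was Plvap (23.3), Clec4g (4.88), Gpr182 (4.05), Oit3 (3.73), Lyve1 (3.45), Stab2 (2.93), Kdr (2.75), Cd34 (2.03), Emcn (1.53) and Vwf (0.245). There, only the ranges of Emcn and Vwf did not overlap among neighbours. Cd34 and Emcn were last of the 10 in livers and stood above Vwf in tumors.

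Cd34 and Emcn were the 2 markers whose tumor and liver values did not overlap. Cd34 encodes a sialomucin of capillary endothelium that is also found on blood progenitors. Its level was 0.935 CPM in the lowest liver, 1.52 at the median and 2.49 in the highest, against 4.68, 14.8 and 24.7 CPM in tumors. T-HCC663 was the lowest tumor, at 1.88 times its own liver, while the other 5 were 8.71 to 20.3 times theirs. Emcn, which encodes the endothelial sialomucin endomucin, read 0.538, 1.36 and 2.13 CPM in livers (lowest, median and highest) and 3.73, 8.30 and 9.73 CPM in tumors. T-HCC663 was again lowest, 1.89 times its liver, and T-HCC941 reached 15.8 times its liver, which had 7 Emcn reads. The median log2 ratio of a tumor to its own liver, with 1 CPM added to each value, was 2.77 for Cd34 (SD 0.95, n = 6 mice) and 2.09 for Emcn (SD 0.81). Of the 13822 genes, 2.84% had 6 tumors above 6 livers without overlap and 10.7% were higher in all 6 tumors than in their livers, and since Cd34 and Emcn were chosen for this contrast nothing is read from their 2 of 10.

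Plvap and Vwf, the other capillary markers, did not follow. Plvap, whose product forms the diaphragms of fenestrae and caveolae, read 13.8, 38.5 and 85.1 CPM in livers and 17.6, 46.2 and 79.5 CPM in tumors. It exceeded the paired liver in 2 of 6 tumors (T-HCC941 and TCi-HCA984), with a median log2 ratio of -0.23 (SD 0.98). Vwf, the clotting glycoprotein stored in endothelial cells and platelets, read 2.49, 4.52 and 6.15 CPM in livers and 1.02, 3.93 and 10.4 CPM in tumors, with a median log2 ratio of 0.20 (SD 0.66) and a higher value in 4 of 6 tumors. Both genes overlapped between the tissues, and both were lowest among tumors in T-HCC662.

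**Figure D1:**
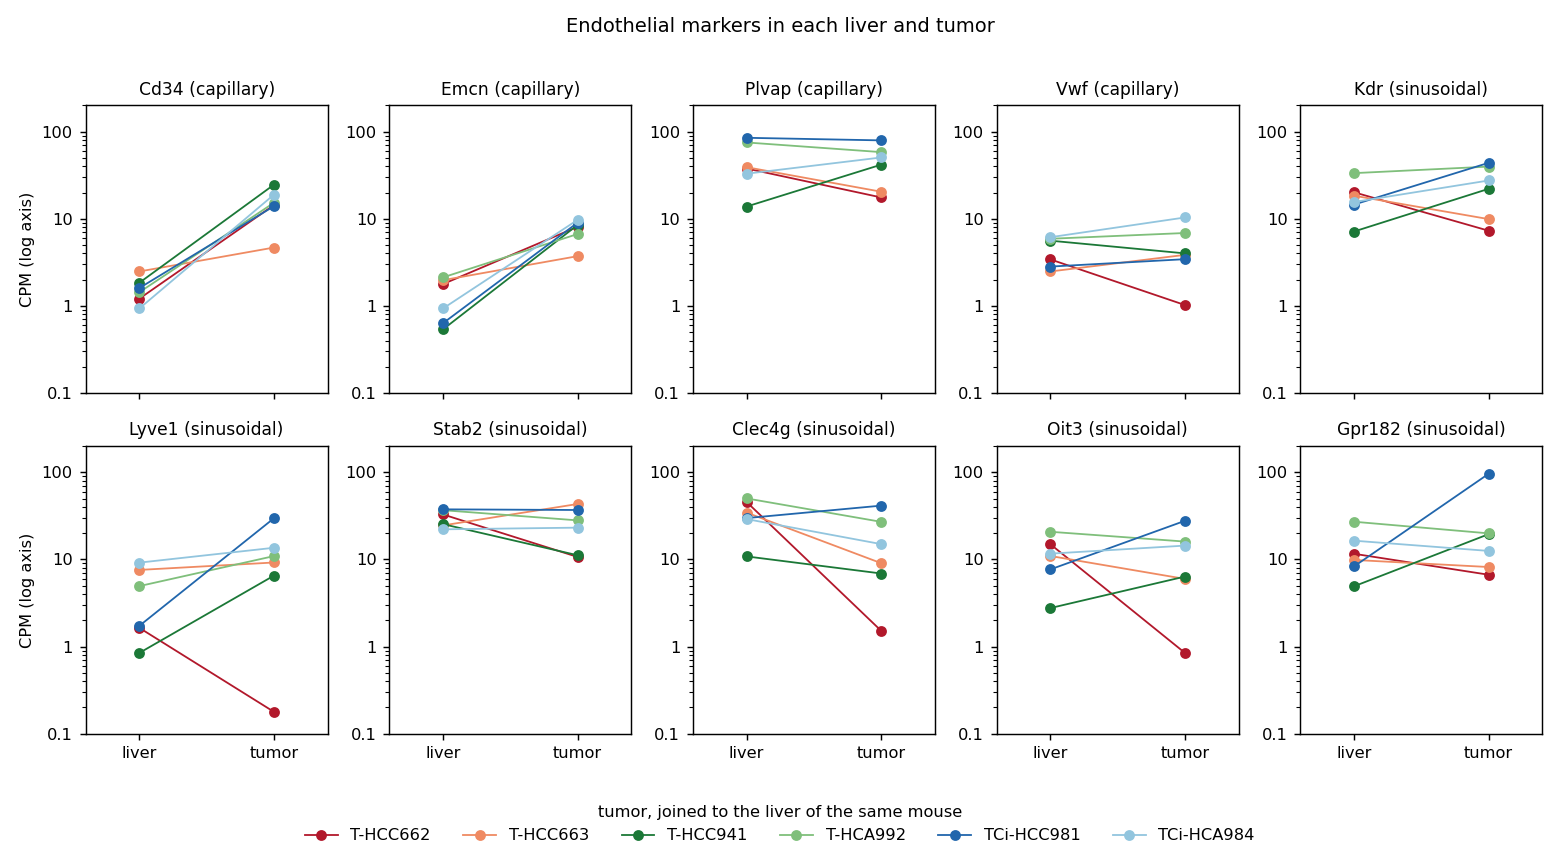
Level of each marker in CPM (log axis) in each of the 6 livers and 6 tumors, with a line joining the tumor to the liver of the same mouse. Cd34 and Emcn are above every liver in every tumor, whereas the lines of the other 8 genes cross and T-HCC662 drops to 0.178 CPM for Lyve1 and 1.51 CPM for Clec4g.

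Among sinusoidal markers, Clec4g and Stab2 were lower than in the liver in most tumors. Clec4g encodes a lectin of sinusoidal endothelium (LSECtin). It read 10.8, 32.2 and 50.2 CPM in livers and 1.51, 12.0 and 41.5 CPM in tumors. It was lower than in its liver in 5 of 6 tumors, TCi-HCC981 being the exception at 1.39 times, and the median log2 ratio was -0.89 (SD 1.59). Stab2, the scavenger receptor that clears hyaluronan, read 22.2, 29.2 and 37.6 CPM in livers and 10.7, 25.6 and 43.3 CPM in tumors. T-HCC662 and T-HCC941 were below every liver at 0.325 and 0.439 times their own, T-HCC663 was above every liver at 1.76 times, and the other 3 were at 0.76 to 1.05 times.

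Kdr and Lyve1 leaned the other way. Kdr, the main signalling receptor for VEGF (VEGFR2), read 7.15, 17.0 and 33.4 CPM in livers and 7.30, 24.8 and 43.9 CPM in tumors. It was lower than in the liver in T-HCC662 and T-HCC663 and higher in the other 4 tumors, with a median log2 ratio of 0.51 (SD 1.20). Lyve1, a hyaluronan receptor of sinusoids, lymphatic vessels and some macrophages, read 0.846, 3.34 and 9.20 CPM in livers and 0.178, 10.1 and 29.7 CPM in tumors. It was higher in 5 of 6 tumors, from 1.22 times in T-HCC663 to 17.2 times in TCi-HCC981, and 4 reads were left in T-HCC662. The median log2 ratio was 0.76, between -1.16 and 3.49.

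Oit3 and Gpr182 had wide spreads. Oit3, a gene expressed in liver sinusoidal endothelium, read 2.77, 11.3 and 20.8 CPM in livers and 0.846, 10.4 and 27.8 CPM in tumors, higher in 3 of 6 tumors (median log2 ratio -0.03, SD 1.68). Gpr182, an endothelial receptor that scavenges chemokines, read 4.92, 10.7 and 27.1 CPM in livers and 6.68, 16.0 and 96.2 CPM in tumors, higher in 2 of 6 (median -0.30, SD 1.65). TCi-HCC981 stood alone at 96.2 CPM of Gpr182, the next tumor being at 19.9 CPM.

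**Figure D2:**
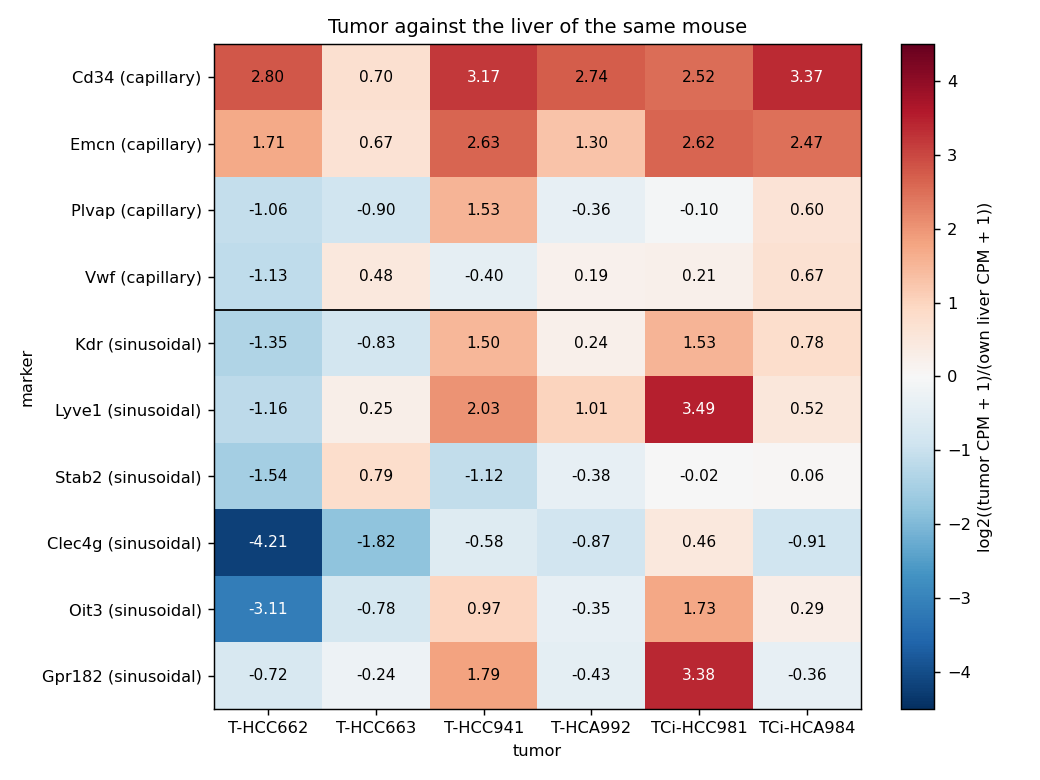
Log2 ratio of each tumor (columns) to the liver of the same mouse for each marker (rows), with 1 CPM added to both values. The line separates capillary from sinusoidal markers. The rows of Cd34 and Emcn are positive in all 6 tumors, from 0.67 to 3.37, and the T-HCC662 column is negative in all other rows.

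Tumor by tumor, the markers took several patterns. The capillary averages given here include Cd34 and Emcn, which were chosen for being higher in tumors and raise them. A gap between the 2 class averages is therefore a description only. In T-HCC662 the 6 sinusoidal markers were all below the liver, with a mean log2 ratio of -2.02, and the 4 capillary markers averaged 0.58. Of these 4, Plvap and Vwf were below the liver there (-1.06 and -1.13). Over the 6 tumors Plvap was above its liver in 2 and Vwf in 4. T-HCC662 was the lowest tumor for 8 of 10 markers, the exceptions being Cd34 and Emcn. In TCi-HCC981 5 of 6 sinusoidal markers were above the liver (mean 1.76, against 1.31 for the capillary markers), and it was the highest tumor for 6 of 10. T-HCC663 (capillary 0.24, sinusoidal -0.44), T-HCA992 (0.97, -0.13) and TCi-HCA984 (1.78, 0.06) lay between, and T-HCC941 was above its liver in both classes (1.73 and 0.76). The liver paired with T-HCC941 was the lowest liver for 7 of 10 markers, so the ratios of T-HCC941 start from a low base. Over all 13822 genes, 48.4% to 50.6% were higher in a tumor than in its liver. The log2 ratios of 21 pan-endothelial genes averaged -0.08 and 0.05 in the tumors T-HCC662 and T-HCC663, 0.50 in T-HCA992, 1.04 in TCi-HCA984, 1.07 in TCi-HCC981 and 1.46 in T-HCC941. Set against that average, the Cd34 ratio was positive in all 6 mice (0.66 to 2.88) and that of Clec4g negative in all 6 (-0.61 to -4.13). The medians were then 1.98 for Cd34, 1.30 for Emcn, -0.91 for Plvap, -0.61 for Vwf, -0.26 for Kdr, 0.36 for Lyve1, -1.04 for Stab2, -1.91 for Clec4g, -0.79 for Oit3 and -0.46 for Gpr182. Vwf and Kdr changed sign on this scale. The median log2 ratio over all 13822 genes was -0.025 to 0.008 in the 6 tumors. Subtracting a positive average therefore takes a gene without change below 0 too. Negative values on this scale are not by themselves a fall below the liver. Cd34 was chosen for its rise in tumors, and the share of all genes with the same sign in all 6 mice was not computed on this scale. The signs of Cd34 and Clec4g on it are therefore a description only.

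Ratios of reads inside a library need no scaling between libraries. For 100 reads of Stab2, livers held 3.69 to 10.1 reads of Cd34 and tumors 10.8 to 221, higher in 6 of 6 mice, with T-HCC663 close to its liver (10.8 against 10.1). For 100 reads of Pecam1, livers held 6.86 to 51.1 reads of Cd34 and tumors 32.0 to 96.7, again higher in 6 of 6. Clec4g had 213 to 485 reads for 100 of Pecam1 in livers and 10.2 to 95.2 in tumors, with no overlap. Stab2 had 163 to 704 in livers and 28.5 to 329 in tumors, and T-HCC663 alone was above its liver. Pecam1 itself was higher in each tumor than in its liver, which lowers a ratio to it, also in TCi-HCC981, where Clec4g was above its liver. Against 100 reads of Stab2, Clec4g had 42.6 to 140 reads in livers and 14.2 to 112 in tumors, overlapping and higher in 2 of 6 tumors. The share of all genes that move in this way against Stab2 or Pecam1 was not computed. These directions and the lack of overlap are therefore a description only.

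**Figure D3:**
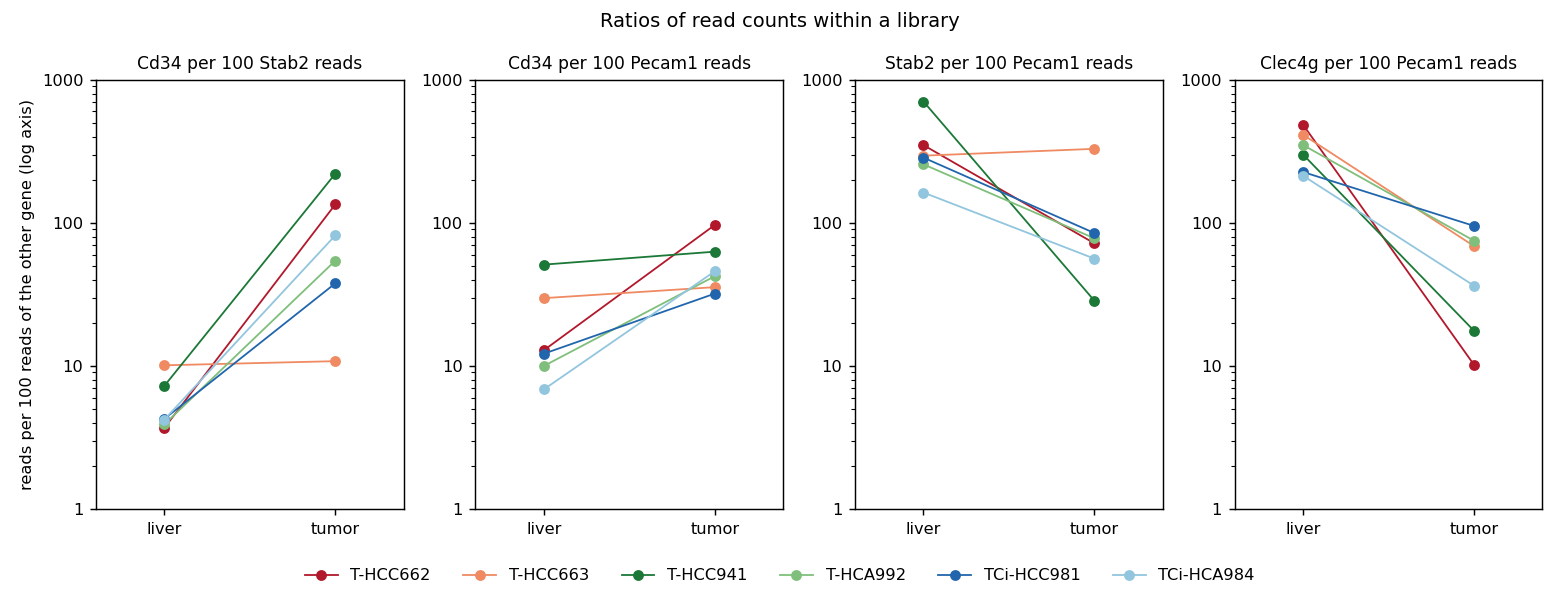
Reads of Cd34 for 100 reads of Stab2 or Pecam1, and of Stab2 and Clec4g for 100 reads of Pecam1 (log axis), in the liver and tumor of each mouse. Cd34 ratios are higher in each tumor than in its liver and Clec4g ratios lower in each, and T-HCC663 has the only rising line for Stab2.

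The tumors split by Ctnnb1, the gene for β-catenin, which is mutated in T-HCC662 and T-HCC663 and not in the other 4. Kdr was the only marker to pass the test: 7.30 and 9.92 CPM in the Ctnnb1-mutated tumors against 22.1 (T-HCC941), 27.5 (TCi-HCA984), 39.8 (T-HCA992) and 43.9 CPM (TCi-HCC981), a log2 fold of -1.94 (SE 0.50, 95% interval -3.03 to -0.86, adjusted p = 0.0286 over 15182 genes by edgeR's quasi-likelihood test). In the same comparison 11.8% of all genes were called, and 5.70% of all genes were called lower. Plvap, Oit3 and Gpr182 also did not overlap between the classes, a state shown on the lower side by 19.4% of all genes. Plvap was at 17.6 and 20.5 CPM against 41.9 to 79.5 CPM (log2 fold -1.59, SE 0.57, adjusted p = 0.0861), Oit3 at 0.846 and 5.98 against 6.36 to 27.8 CPM (-2.24, SE 0.86, 0.105) and Gpr182 at 6.68 and 8.19 against 12.5 to 96.2 CPM (-2.31, SE 0.85, 0.0945). Without TCi-HCC981 the Gpr182 fold was -1.22, and the Oit3 fold was -1.43 without T-HCC662 and -4.22 without T-HCC663.

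Clec4g was at 1.51 and 9.06 CPM against 6.90 to 41.5 CPM (-2.09, SE 0.81, adjusted p = 0.109). Those 4 and Kdr had an unadjusted p under 0.05, 5 of 10 markers against 29.5% of all genes, and DESeq2 called the same 5, with adjusted p from 0.00123 for Kdr to 0.0266 for Clec4g, where it called 20% of all genes. The log2 fold was -0.92 (SE 0.46) for Cd34, -0.51 (SE 0.55) for Emcn, -1.33 (SE 0.63) for Vwf and -1.69 (SE 1.19) for Lyve1, none past the threshold. Stab2 alone leaned higher (0.12, 95% interval -0.94 to 1.19), and its 2 Ctnnb1-mutated tumors read 10.7 and 43.3 CPM. Several of these sizes turned on which Ctnnb1-mutated tumor was kept. Without T-HCC662 and without T-HCC663 in turn, the fold was -1.32 and -3.87 for Clec4g, -0.72 and -6.34 for Lyve1, -0.68 and -2.56 for Vwf, -1.96 and -0.32 for Cd34, -1.19 and -0.05 for Emcn, and 0.80 and -1.19 for Stab2. Plvap ranged from -1.72 to -1.40 over the 6 tumors left out. The median over the 10 markers was -1.64 and over all genes -0.04.

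The Kdr call rests on few tumors: adjusted p was 0.185 without T-HCC662, 0.105 without T-HCC663, 0.0523 without T-HCA992 and 0.0543 without TCi-HCC981, with log2 folds from -2.17 to -1.75 over the 6 tumors left out in turn. With the mouse as a replicate block, which compares each tumor with its own liver, it was 0.0370. Both Ctnnb1-mutated tumors came from p21+/Tert mice, so within that genotype the comparison is 2 against 2. Pan-endothelial markers were lower as well, Pecam1 with a log2 fold of -1.51 (SE 0.42, adjusted p = 0.0384) and Cdh5, the endothelial cadherin, with -1.98 (SE 0.58, 0.0447). Some markers of other cells differed with the class. The summed level of 6 hepatocyte genes was 31420 and 15517 CPM in the Ctnnb1-mutated tumors against 65225 to 93463 in the others. Alb alone read 16421 and 5915 against 48037 to 71461 CPM. By the test 3 of 6 (Alb, Cps1 and Serpina1c) were lower, and Apoa1, Ttr and Hnf4a did not pass. The summed level of 7 stellate cell genes was 38.6 and 63.7 against 106 to 239 CPM, with 3 of 7 lower. Of the 4 bile duct genes Sox9 was lower (2.40 and 2.99 against 21.8 to 56.3 CPM), while Krt19 read 1.25 and 0.953 against 0 to 1.01 CPM and did not pass. The part of these cells in the Kdr difference was not tested.

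**Figure D4:**
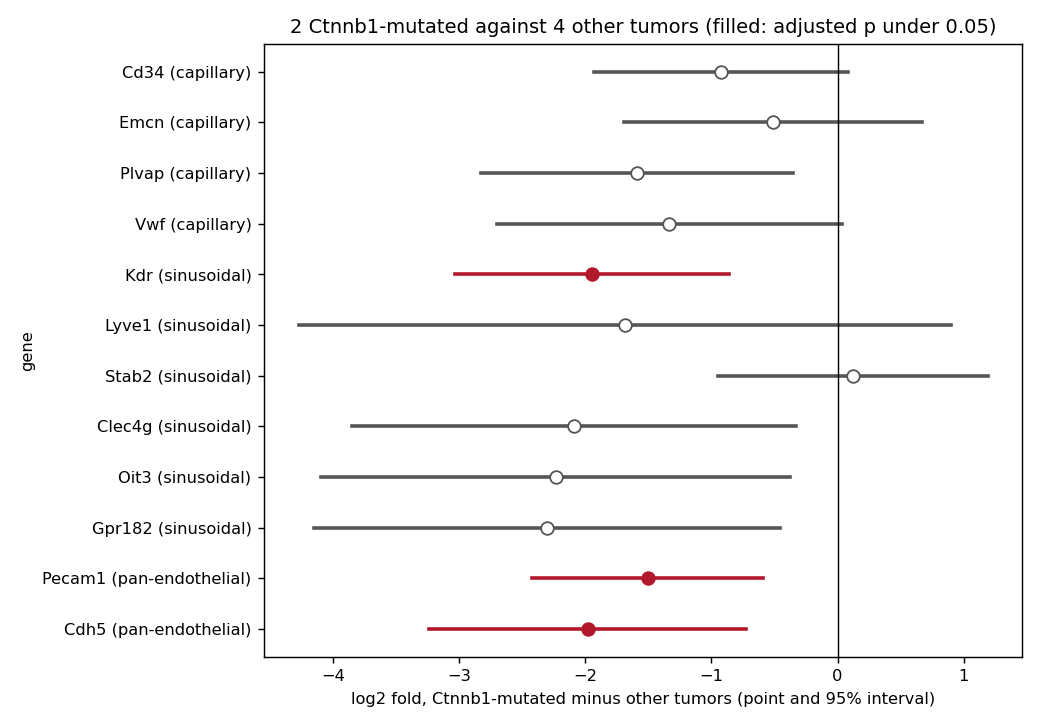
Log2 fold between the 2 Ctnnb1-mutated and the 4 other tumors (points) with its 95% interval (lines) for the 10 markers and for Pecam1 and Cdh5. Filled points, Kdr, Pecam1 and Cdh5, have an adjusted p under 0.05, and Stab2 is the only point above 0.

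The genotypes were not separated by any marker. For the difference in tumor effect between p21+/Tert and p21+/TertCi mice, edgeR called 0 of the 10 markers, and 0 of 15182 genes (0%). No marker had an unadjusted p under 0.05, against 556 of all genes (3.66%), and DESeq2 called 6 genes, no marker among them. All 10 estimates were negative, which means a smaller tumor effect in p21+/Tert mice, as were 45.6% of all genes (median 0.06). Both Ctnnb1-mutated tumors, low in several markers, are p21+/Tert, so class and genotype are partly mixed in these estimates. T-HCC941 and T-HCA992, also p21+/Tert, lack the mutation, as do both p21+/TertCi tumors. The genotypes were not tested among the tumors without the mutation alone. The estimates ran from -0.37 for Stab2 to -2.11 for Gpr182 (95% interval -4.61 to 0.39). Emcn was at -1.51 (-3.12 to 0.10) and Cd34 at -0.62 (-2.30 to 1.07), so differences of several fold in either gene lie inside the intervals.

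Between livers alone, the 4 p21+/Tert animals were compared with the 2 p21+/TertCi animals, and edgeR called 0 of 10 and 0 of 15182 (0%). No marker had an unadjusted p under 0.05, against 756 genes (4.98%), and DESeq2 called 42 genes, again with no marker. Cd34 was at 1.74 ± 0.56 CPM (SD, n = 4) in p21+/Tert livers and 1.27 ± 0.47 CPM (n = 2) in p21+/TertCi livers, and Emcn at 1.61 ± 0.73 and 0.784 ± 0.213 CPM. The Emcn log2 fold of 1.04 had the interval nearest to excluding 0 (-0.17 to 2.24). Stab2 was the most alike, 29.9 ± 5.89 and 29.9 ± 10.9 CPM, with an interval of -1.13 to 1.13.

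To place the markers, 75 other vascular genes were read in the comparison of 6 tumors with 6 livers. They comprise endothelial genes, basement membrane genes, and vascular ligands and receptors. In bulk RNA the last 2 kinds cannot be assigned to endothelial cells. Of the 71 that passed the filter, 25 rose and 0 fell by edgeR's quasi-likelihood test, against 6.77% of all genes called higher and 3.91% called lower, and the median log2 fold was 0.68 against 0.01 over all genes. At an unadjusted p under 0.05, 33 were higher and 4 lower, against 26.2% of all genes in either direction, and DESeq2 called 30 higher and 1 lower, with 10.5% and 6.92% of all genes. By list, 8 of 21 pan-endothelial genes rose, 8 of 17 genes of continuous vessels and tip cells, 6 of 9 genes of basement membrane, 2 of 9 vascular ligands and receptors, and 1 of 15 further sinusoidal genes. These lists were drawn up with the Cd34 result known and are no independent evidence of its direction.

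Genes with a small p included those of sprouting vessels and of the vessel wall. Apln, which encodes the tip cell peptide apelin, rose from 0.142 ± 0.167 to 9.20 ± 6.87 CPM (mean ± SD, n = 6 each; log2 fold 6.06, SE 0.84, adjusted p = 0.00152). Ly6c1, a surface antigen of capillary endothelium and some blood cells, rose from 0.352 ± 0.321 to 11.2 ± 5.87 CPM, Esm1, an endothelial proteoglycan of tip cells, from 2.26 ± 3.04 to 35.9 ± 22.2 CPM, and Angpt2, the angiopoietin that loosens vessels, from 0.704 ± 0.416 to 6.75 ± 6.20 CPM. In basement membrane, Nid1 (nidogen) rose from 10.4 ± 8.18 to 168 ± 124 CPM, and Col4a1 (collagen IV) from 21.6 ± 12.1 to 124 ± 62.3 CPM. Pdgfb, the endothelial signal to pericytes, rose from 2.52 ± 1.20 to 14.1 ± 7.39 CPM. All of these were higher in 6 of 6 tumors than in their livers.

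Of the general markers, Pecam1 rose (log2 fold 1.59, SE 0.38, adjusted p = 0.0179) and so did Esam, an endothelial adhesion molecule (1.94, SE 0.38, 0.00692). Cdh5 did not pass (1.02, SE 0.48, adjusted p = 0.198). Stab1, the relative of Stab2, was at 54.8 ± 13.7 CPM in livers and 77.0 ± 18.0 CPM in tumors, a log2 fold of 0.49 that did not pass (adjusted p = 0.165). Neither did Vegfa, the ligand of Kdr (-0.44, SE 0.20, adjusted p = 0.190), or Col15a1, a collagen of capillary basement membrane (0.20, SE 0.47, 0.835). Flt4, which encodes VEGFR3, was the single other sinusoidal gene to rise (2.86, SE 0.75, adjusted p = 0.0282), with values of 3.03 to 200 CPM in tumors and 4 of 6 above their livers. With the mouse as a replicate block its adjusted p was 0.149.

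**Figure D5:**
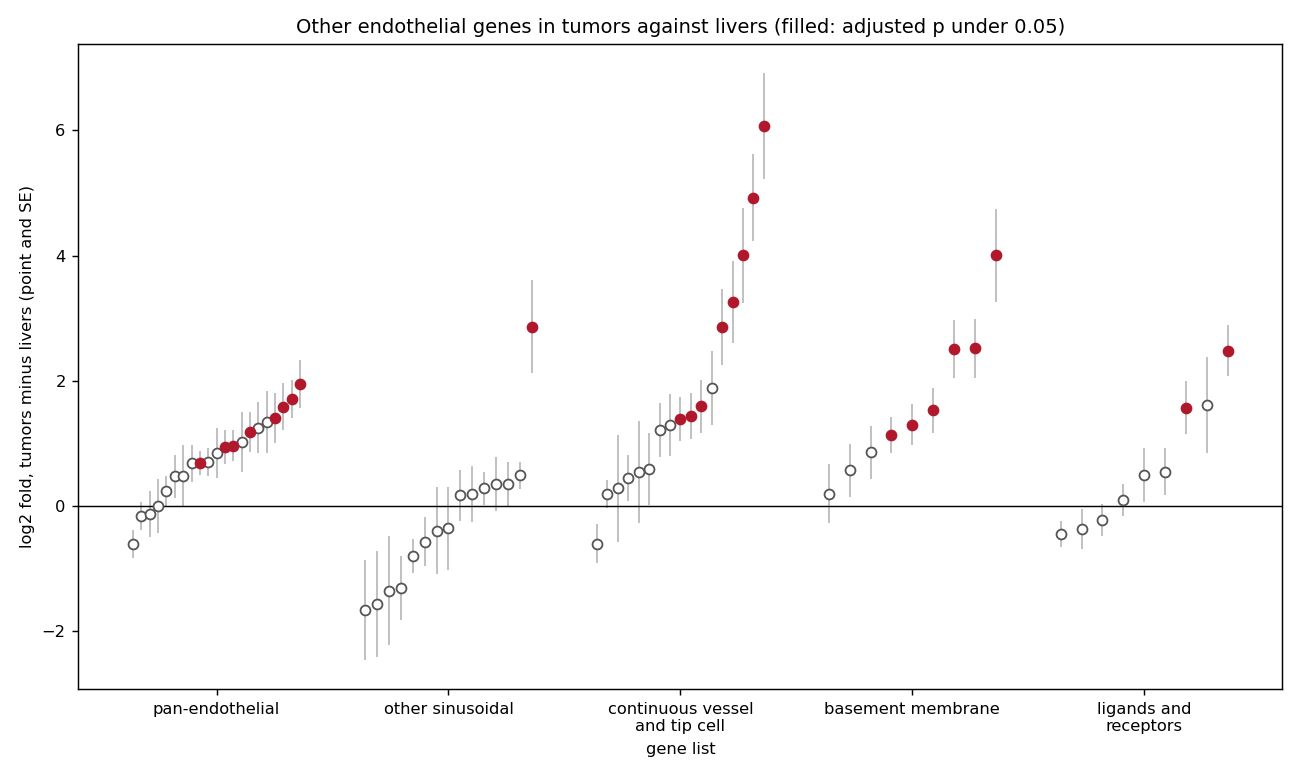
Log2 fold between 6 tumors and 6 livers (points, with SE as lines) for the 71 further vascular genes that passed the filter, by list. The 25 filled points passed at an adjusted p under 0.05 and all lie above 0, and only 1 of them is in the list of other sinusoidal genes.

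Of the 25 genes, 13 were called in each of the 12 fits that left out a library, among them Pecam1, Esam, Apln, Ly6c1, Esm1, Angpt2, Nid1, Col4a1 and Pdgfb. The count was 15 without T-HCC941, 16 without T-HCA992 and 16 without the liver paired with T-HCC662. In the Ctnnb1 comparison 11 of 74 genes of these lists fell and 1, Esam, rose, against 5.70% and 6.11% of all genes. DESeq2 called 24 lower there (11.3% of all genes) and the fit with the replicate block 4, and 2 to 8 were left as each tumor was omitted, with 2 without T-HCC662, 3 without T-HCC663, 4 without T-HCA992, 5 without TCi-HCC981 and 4 without TCi-HCA984.

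Markers of other cells that carry the same genes were read alongside. Cd34 is shared with blood progenitors and Vwf with platelets: of the 4 progenitor genes tested none passed, Ptprc being higher in 5 of 6 tumors than in their livers (mean 27.0 against 15.4 CPM), Kit and Gata2 in 4 of 6 each, and Hlf in 0 of 6 (39.3 against 67.3 CPM). Platelet genes (5) summed to 8.18 to 34.1 CPM in tumors and 7.18 to 20.8 CPM in livers, and none passed the test. Lyve1 is shared with lymphatic vessels. Of the 4 genes listed for these, Mmrn1 and Ccl21a were below 1 CPM in every library and Pdpn reached 1.58 CPM. Prox1 stood far above these, at 13.7 to 46.1 CPM in tumors and 16.0 to 55.1 CPM in livers, and did not pass. In bulk RNA its level cannot be assigned to lymphatic vessels. Macrophages carry Lyve1 as well, and the 7 genes of Kupffer cells and macrophages summed to 86.0 to 844 CPM in tumors and 121 to 1258 CPM in livers, none past the threshold. The highest of each group were TCi-HCC981, the tumor with the most Lyve1 (29.7 CPM), and its liver. That liver had 1.73 CPM of Lyve1, where the median liver had 3.34 CPM. The part of these cells in the Lyve1 level was not tested. Ecm1, a stellate cell gene, fell in tumors (log2 fold -1.46, SE 0.36, adjusted p = 0.0233), the only 1 of 7 in its list.

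Profiles over the 12 libraries were compared as log2(CPM + 1) after centring each gene on its mean. The 5 genes nearest to Emcn, members left aside, were Tgfbr2, Mcam, Bcl6b, Cxcr4 and Tc2n, at a root mean square difference of 0.36 to 0.39 log2 units, where Emcn itself varied with an SD of 1.08. Tgfbr2, the type II TGF-β receptor, read 9.92 to 31.7 CPM in livers and 69.2 to 148 CPM in tumors. The 5 nearest to Stab2 were Stard8, Unc5a, Fnbp1, Plcb3 and Dcp1b, at 0.33 to 0.35, where Stab2 varied with an SD of 0.62. Stard8, the nearest, read 6.59 to 14.4 CPM in livers and 5.12 to 17.5 CPM in tumors. The likeness describes these 12 libraries and the 13812 genes compared.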

How the data were processed

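Poly(A) RNA of 6 liver tumors and 6 non-tumoral livers was measured. The authors deposited raw read counts per gene symbol, made by aligning paired-end reads with Subread to mm10 with an mCherry sequence added and counting with featureCounts 1.6.4 (submitters' processing notes and the study's methods). The annotation release, the strand setting and the treatment of multiply aligned reads are not given in the sources used here. Libraries held 14571716 to 26170661 counts, and low genes rest on few reads. The study tested with DESeq2 and corrected for sequencing run, which the labels do not give, so the run is not in these fits.

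Counts were scaled by TMM in edgeR 4.0.16 (R 4.3.3) and given as counts per 1000000 (CPM). Genes were kept by filterByExpr, fitted over all 12 libraries, tested with the quasi-likelihood F test on the whole table and adjusted by Benjamini-Hochberg at 0.05, with 95% intervals from the same test. The fits were tested on simulated data. DESeq2 1.42.0, other size factors, no filter, each library left out and the mouse as a replicate block were the alternatives. Tumor and liver of 1 mouse share an animal, which pairs them: their deviations from group means correlated with r of 0.0054 to 0.427 in the 4 p21+/Tert mice. With 2 p21+/TertCi mice, centring forces both values to be equal (0.542), so that check rests on the p21+/Tert mice. Among these, T-HCC663 correlated more with the liver paired with T-HCC941 (0.166) than with its own (0.0394). T-HCC941 correlated more with the liver paired with T-HCC663 (0.0710) than with its own (0.0054). The check thus does not single out the own liver in each mouse. Tumor classes follow the mutations the study gives.

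The members, gene lists and tests were chosen with earlier results of these data known. Named were all 10 members, up to 6 genes a list past the threshold in tumors against livers, Pecam1, Cdh5, Stab1, Vegfa and Col15a1, and the 5 genes most like Emcn and Stab2, by a written rule. Other genes (Mmrn1, Ccl21a, Pdpn, Prox1, Gata4, S1pr1 and those of progenitors, hepatocytes and bile ducts) were named after their values were seen. The lists were written from general knowledge. Cavin1 and Cavin2 were matched through older names. No member had a near-identical copy elsewhere (95% identity over 200 bases, minimap2 2.31-r1302, GENCODE M21). Promoters are from RefSeq.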

Additional observations from a re-analysis of the deposited data

Results flagged for a closer look

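Gpr182 in TCi-HCC981, at 96.2 CPM, stood apart from the other 5 tumors, the next at 19.9 CPM. The gap was 0.852 of the range of the 6 tumors. Each of the 10 markers was checked in the 6 tumors and in the 6 livers, 20 groups in all, so a group can be set apart by chance alone. The gap was taken on CPM and not on a log scale, and how often chance gives such a gap was not tested. The median log2 ratio of Gpr182 to the own liver was -0.30, and the fold between Ctnnb1-mutated and other tumors was -2.31 with this tumor and -1.22 without it.

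Kdr differed between Ctnnb1-mutated and other tumors by a log2 fold of -1.94 in a test of the difference itself, with the losses on leaving out a tumor given above.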

How the results depend on the processing

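Among the 71 further vascular genes, calls in tumors against livers were 25 higher and 0 lower, and 24 to 30 higher with DESeq2, RLE size factors, no filter or the mouse as a replicate block (22 with the 5 mice paired by label). Lower calls numbered 1 with DESeq2 (Gata4, of the further sinusoidal genes), 2 with the replicate block and 2 with the block in 5 mice (Gata4 and S1pr1 in both). In the main fit Gata4 had a log2 fold of -0.80 and S1pr1 of -0.60, neither past the threshold. Leaving out a library gave 15 to 28 higher and 0 to 1 lower. Of members in the Ctnnb1 comparison, edgeR called 1, DESeq2 5, and 0 to 1 remained as tumors were left out. The further genes called lower there were 11, against 24 with DESeq2, 4 with the replicate block and 2 to 8 as tumors were left out. Members called in the interaction and between livers were 0 in every setting run, leaving out a library included (0 to 0). The block changed no other member call. Flt1 (adjusted p = 0.0711) and Icam2 (0.0587) missed the threshold, as did Dll4 and Hey1, and Stab1 passed it (0.0474) with the block in 5 mice, while the block in 6 mice lost Dll4 and Flt4. Set against the pan-endothelial average, the median log2 ratio moved from 0.20 to -0.61 for Vwf, from 0.51 to -0.26 for Kdr, from -0.20 to -1.04 for Stab2, from -0.03 to -0.79 for Oit3, from -0.23 to -0.91 for Plvap and from -0.89 to -1.91 for Clec4g. The subtraction lowers any gene where that average is positive. No setting turned a called difference around. With 2 p21+/TertCi mice and 2 Ctnnb1-mutated tumors, differences of a few log2 units can go uncalled.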

Other observations

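Some genes outside the comparisons were too low to pass the filter in tumors against livers. Aplnr, the apelin receptor, was at 0.0353 ± 0.0564 CPM in livers and 3.11 ± 3.99 CPM in tumors (SD, n = 6), Pgf, placental growth factor, at 0.0459 ± 0.0738 and 1.01 ± 0.647 CPM, and Rgcc, a regulator of the cell cycle, at 0.0768 ± 0.0820 and 0.827 ± 0.618 CPM. Each was higher in 6 of 6 tumors than in their livers. These 3 were named after their values were seen, because edgeR called them higher in tumors when the filter on low counts was dropped. Wnt2, Wnt9b and Rspo3, also chosen after their values were seen, are the Wnt ligands and enhancer that sinusoidal endothelium supplies to hepatocytes. They were at 0.431 ± 0.421, 0.508 ± 0.668 and 1.58 ± 1.75 CPM in tumors and 1.28 ± 0.842, 1.31 ± 0.701 and 5.02 ± 2.36 CPM in livers, none past the threshold (adjusted p = 0.265, 0.354 and 0.207 by edgeR). Between tumors, Wnt2 (adjusted p = 0.0212, at 0 reads in both Ctnnb1-mutated tumors) and Rspo3 (0.0332) were lower in the Ctnnb1-mutated class and Wnt9b did not pass (0.105).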
